A study of Mus musculus with 6 samples.

Results

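The 40 genes described here act from the G2 phase of the cell cycle to the end of mitosis, and they were followed in 6 RNA sequencing libraries of DC2.4, an immortalised mouse dendritic cell line that divides in culture and whose cell type the labels give as dendritic cells from bone marrow. Members were taken by gene symbol from the deposited count table, where each of the 40 symbols had a single row among 54532 genes. In every library the cells carried the pTT5 expression vector, either empty (3 libraries) or labelled as overexpressing Vdbp (3 libraries). Vdbp is the vitamin D-binding protein, whose mouse gene is Gc. Cells had been transfected, passaged 48 h later and then put under selection with an agent that the labels do not name. The labels do not say whether a group was 1 clone or a pool of selected cells, nor whether its 3 libraries came from separate cultures, so a p-value here covers only the spread among these 6 libraries.

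As background, a cell enters mitosis when cyclin-dependent kinase 1 (Cdk1) bound to B-type cyclins is activated by Cdc25 phosphatases. Kinetochores then attach the centromeres to spindle microtubules while the spindle assembly checkpoint holds back the anaphase-promoting complex, a ubiquitin ligase. Once all chromosomes are attached, Cdc20 activates that ligase, securin and the cyclins are degraded, separase splits the sister chromatids, and the central spindle directs cytokinesis. Most of the genes are transcribed in a wave late in the cycle, so in dividing cells the summed RNA of the set is commonly read as a measure of the share of cells in G2 and mitosis. In bulk libraries, fewer cells in those phases and less RNA per cell cannot be told apart.

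Library totals lay between 15563800 and 16710975 counts, and 99.9% of the counts fell on the 12844 genes that were tested. Gc, the gene named on the labels, had 0 counts in all 6 libraries, which allows levels of up to 0.177 to 0.192 CPM per library for RNA counted at this gene (CPM are counts scaled by the TMM-adjusted library total; the limit stands for 3 counts and covers counting error only). Whether RNA from the vector's insert would be counted at Gc is not stated, so the 0 sets no limit on the insert itself, and the second group is called the libraries labelled Vdbp throughout. Of 14 dendritic and myeloid markers 12 were expressed well enough to be tested, with Cd68 and Adgre1 the highest of them at 1245 and 671 CPM in the empty-vector mean. The lowest of the 12, Zbtb46, averaged only 2.69 CPM with empty vector and 2.85 CPM in the libraries labelled Vdbp. The class II chain H2-Aa and the receptor Flt3 were at most 0.22 CPM in either group mean. T cell and epithelial markers summed to at most 0.30 CPM in any library, and B cell, fibroblast and endothelial markers to at most 3.19 CPM. Empty-vector replicate 2 and Vdbp replicate 1 stood apart from the rest in how their counts followed the GC content of genes, that is the share of G and C bases in the longest transcript. Spearman's rho between a library's deviation from the gene mean and GC content, across 12834 genes, was −0.61 in empty-vector replicate 2 and 0.72 in Vdbp replicate 1, against −0.39 to 0.07 in the other libraries. For this reason the role groups are also described from a fit whose offset takes out how each library's counts follow the length and GC content of genes, and the set as a whole also without these libraries.

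Most of the start regions of these genes held sequence elements known from late cell cycle genes. As examples, 5 of the regions are shown, all of which hold both elements described below. The cell cycle genes homology region, with the core TTTGAA, is bound by the MuvB core complex, which represses these genes with DREAM early in the cycle and activates them with B-Myb and Foxm1 late in it. CCAAT boxes are bound by the activator NF-Y. RefSeq promoters (250 bases before to 50 after an annotated start, build GRCm38.p6) were found for 32 members as 35 windows. The 8 without an entry were Aurkb, Ccna2, Cdc25c, Foxm1, Incenp, Kif20a, Spc24 and Tpx2. Each sequence reads 5′ to 3′ on the strand of the gene, and capitals mark TTTGAA and CCAAT on either strand (TTCAAA and ATTGG where the match lies on the other strand).
Ccnb2 promoter, chr9:70421505-70421804, minus strand: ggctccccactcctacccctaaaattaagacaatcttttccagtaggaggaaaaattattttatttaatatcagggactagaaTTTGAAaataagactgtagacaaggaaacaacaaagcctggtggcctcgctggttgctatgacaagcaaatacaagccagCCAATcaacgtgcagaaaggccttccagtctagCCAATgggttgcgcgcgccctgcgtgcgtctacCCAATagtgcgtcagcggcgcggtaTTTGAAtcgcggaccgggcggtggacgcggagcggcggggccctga
Cdk1 promoter, chr10:69352863-69353162, minus strand: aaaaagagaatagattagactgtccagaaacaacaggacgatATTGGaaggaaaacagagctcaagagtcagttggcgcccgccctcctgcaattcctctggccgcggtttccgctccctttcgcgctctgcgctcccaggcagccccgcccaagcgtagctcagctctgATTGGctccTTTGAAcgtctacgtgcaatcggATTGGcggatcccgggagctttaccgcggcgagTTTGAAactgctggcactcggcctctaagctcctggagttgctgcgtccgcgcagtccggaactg
Cdc20 promoter, chr4:118437294-118437593, minus strand: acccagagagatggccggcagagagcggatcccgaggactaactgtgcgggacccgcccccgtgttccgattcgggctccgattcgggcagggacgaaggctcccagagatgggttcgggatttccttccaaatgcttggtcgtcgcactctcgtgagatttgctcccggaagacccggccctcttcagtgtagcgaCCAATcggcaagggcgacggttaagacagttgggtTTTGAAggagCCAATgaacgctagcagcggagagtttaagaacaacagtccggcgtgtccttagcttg
Cenpa promoter, chr5:30666636-30666935, plus strand: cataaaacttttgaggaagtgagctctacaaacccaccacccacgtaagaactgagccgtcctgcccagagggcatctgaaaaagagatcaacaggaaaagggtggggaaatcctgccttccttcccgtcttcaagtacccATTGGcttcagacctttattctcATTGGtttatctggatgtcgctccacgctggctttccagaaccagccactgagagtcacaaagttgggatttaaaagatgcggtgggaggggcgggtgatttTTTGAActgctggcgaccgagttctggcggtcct
Top2a promoter, chr11:99024140-99024439, minus strand: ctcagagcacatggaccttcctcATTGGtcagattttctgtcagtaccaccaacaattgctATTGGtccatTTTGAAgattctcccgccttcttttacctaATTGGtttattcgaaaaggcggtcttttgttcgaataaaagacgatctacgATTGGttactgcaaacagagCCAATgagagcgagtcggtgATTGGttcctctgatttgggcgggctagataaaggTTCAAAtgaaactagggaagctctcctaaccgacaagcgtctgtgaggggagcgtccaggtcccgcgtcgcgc
Positions are those of the first base of a match, with the first transcribed base as 1 and the base before it as −1. The Ccnb2 window held CCAAT at −87, −54 and −21, and TTTGAA at −167 and 5. Cdk1 had 3 CCAAT boxes on the other strand and TTTGAA at −71 and −15. Cdc20 had a single TTTGAA, at −18, between CCAAT boxes at −53 and −8. Cenpa had a single TTTGAA, at 17, and 2 CCAAT boxes on the other strand. Top2a had 6 CCAAT boxes, 5 of them on the other strand, and TTTGAA at −179 and, on the other strand, at −23.

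Searched on both strands, TTTGAA was in 26 of the 35 windows (74.3%), against 17.9% of all 32851 promoter windows in the RefSeq table. It was centred within 50 bases of the start in 65.7% of the members' windows and 5.14% of all windows. The related core TTCGAA, which reads the same on both strands, was in 4 windows (11.4%, against 1.56%). CCAAT was in 27 windows (77.1%, against 37.4%), and 51.4% of the members' windows held more than 1 CCAAT, against 11.7% of all. Both TTTGAA and CCAAT were present in 65.7% of the members' windows and 6.95% of all windows. A list of 28 S phase genes, of which 22 had 26 windows, held TTTGAA in 11.5% of windows and CCAAT in 53.8%. For 127 further mitosis genes, of which 105 had 122 windows, these shares were 36.1% and 57.4%. Birc5, Mad2l1, Nuf2, Nusap1 and Pttg1 had neither motif within the window, which says only that these letters are absent there. These shares describe the sequences and were not tested.

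All 40 members were expressed and all passed the filter on low counts, with between 256 and 10192 counts per member and library. Per length (FPKM, which scales counts by the library total and the table's gene length), the order was led by Ube2c, the ubiquitin-conjugating enzyme of the anaphase-promoting complex, at 136 FPKM over the 6 libraries. Tpx2, a spindle assembly factor that activates Aurora A, followed at 91.6 FPKM and Cdc20 at 90.2 FPKM, and this pair changed order between the groups (93.6 ± 3.10 and 81.2 ± 8.85 FPKM with empty vector, 89.6 ± 6.79 and 99.1 ± 8.95 FPKM under the Vdbp label; SD, n = 3 each). The gap exceeded either SD with empty vector and under the Vdbp label, in opposite directions. Ccnb2 (64.1 FPKM), Aurka (62.7 FPKM) and Top2a (57.0 FPKM) came next. The median member stood at 18.9 FPKM. The lowest were Cenpf at 2.72 FPKM, Ndc80 at 4.76 FPKM and Mad2l1 at 5.03 FPKM, and 30.6% of all tested genes had a lower mean FPKM than Cenpf. Together the 40 members took 0.479% to 0.517% of the counts with empty vector and 0.449% to 0.514% under the Vdbp label, so the groups overlapped.

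**Figure D1:**
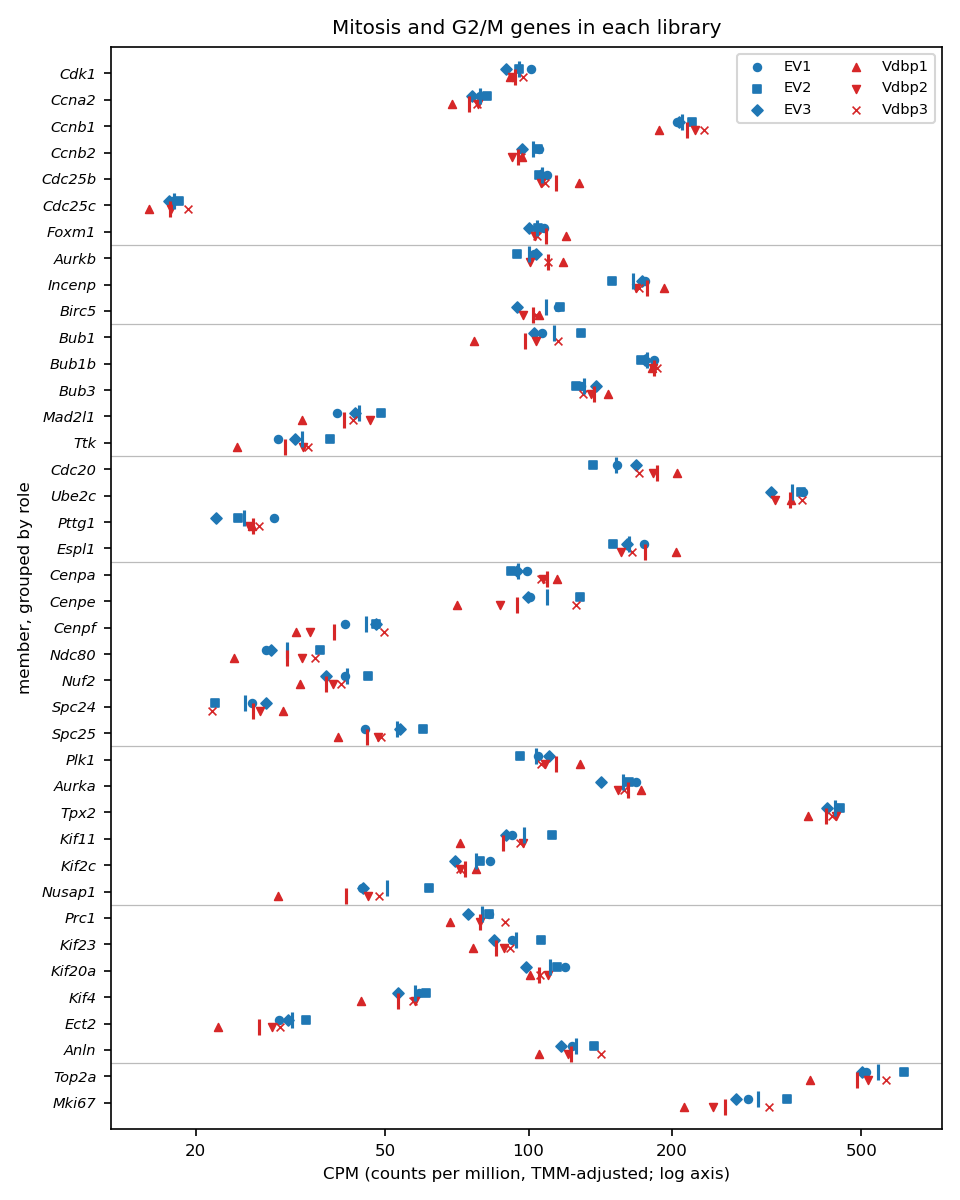
CPM on a log axis of each of the 40 members in 3 empty-vector libraries (blue, EV1 to EV3) and 3 libraries labelled Vdbp (red), with group means as vertical bars and grey lines between role groups. The groups overlap for all members but Cdc20 and Cenpa. Vdbp replicate 1 (upward triangle) is the lowest library for 21 members, and for 32.3% of all tested genes.

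No member passed the test between the groups. edgeR's quasi-likelihood test, with Benjamini-Hochberg adjustment over all 12844 tested genes, called 0 of 40 members at an adjusted p under 0.05, where it called 0% of all tested genes (DESeq2 called 11 genes, none of them a member), and the members' adjusted p lay between 0.781 and 0.994. At an unadjusted p under 0.05 there were 2 members (5.00%), Cdc20 and Cenpa, both higher, against 5.35% of all tested genes in either direction, 2.81% higher and 2.54% lower. The offset fit also had 2 members at that level, the same genes, against 8.91% of all tested genes. DESeq2 and limma-voom called 0 members, with 1 and 2 at an unadjusted p under 0.05. Without empty-vector replicate 1 or 2 the edgeR count at that level was 0, without empty-vector replicate 3, Vdbp replicate 1 or Vdbp replicate 2 it was 1, and without Vdbp replicate 3 it was 6. The groups did not overlap for the same 2 members, both higher, against 10.9% of all tested genes in either direction, 5.26% higher and 5.61% lower. The log2 fold change (libraries labelled Vdbp over empty vector) was above 0 in 14 members and below 0 in 26, with a median of −0.05, against −0.01 for all tested genes. With the length and GC offset it was above 0 in 18 and below 0 in 22, with a median of −0.02. Its range over the members was −0.28 to 0.29 without the offset.

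The precision allowed upper limits on most members. For 38 of 40 members the 95% confidence interval held no change beyond 1.5-fold in either direction, against 70.7% of all tested genes. The exceptions were Nusap1 and Cenpe, whose intervals reached down to log2 fold changes of −0.68 and −0.60. The median SE of the log2 fold change was 0.11 over the members and 0.14 over all tested genes.

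**Figure D2:**
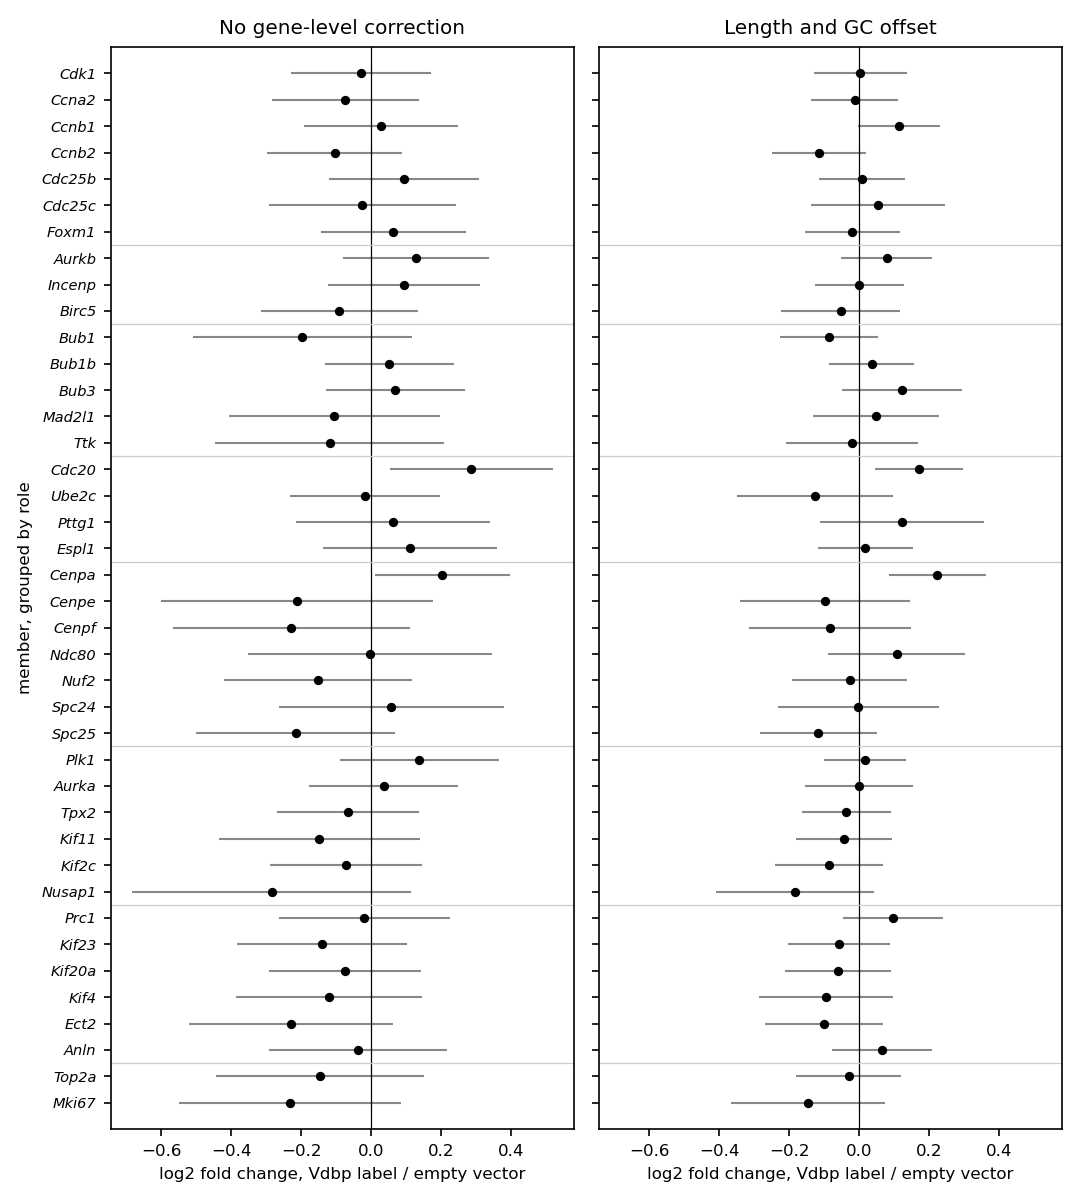
Log2 fold change (libraries labelled Vdbp over empty vector, 3 libraries each) of the 40 members with 95% confidence intervals, from edgeR without a gene-level correction (left) and with the length and GC offset (right). The intervals of Cdc20 and Cenpa exclude 0 in both panels, and that of no other member does.

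CPM are listed below for empty-vector replicates 1, 2 and 3 and then for the libraries labelled Vdbp, replicates 1, 2 and 3, and means ± SD (n = 3 each) are given with empty vector first. Adjusted p are from edgeR with Benjamini-Hochberg adjustment over all tested genes. Positions are those of the deposited table, which for 37 of the 40 members equal those of GENCODE M21 (GRCm38), and each span is that of the whole gene.

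Mitotic entry was represented by 7 members, 3 with a log2 fold change above 0 and 4 below, with a median of −0.02 and none past the test. With the offset 4 were above 0 and the median was 0.0039. Ccnb2, cyclin B2, the highest of them per length and the member of the group with the smallest p, (chromosome 9, 70407692 to 70421547) had 105, 105 and 96.8 CPM against 96.9, 92.4 and 96.3 CPM. These values sat close together, and the groups overlapped only through empty-vector replicate 3 and Vdbp replicate 1. Its log2 fold change was −0.10 (SE 0.09, adjusted p 0.785). Cdk1, the kinase that drives entry, averaged 95.5 ± 5.73 and 93.7 ± 3.06 CPM, and its log2 fold change was −0.03 with bounds of −0.23 and 0.17 at 95% confidence. Ccnb1, cyclin B1, had 205, 220.4 and 207 CPM against 188, 223 and 233 CPM, so the libraries labelled Vdbp held both its lowest and its highest value. Its log2 fold change was 0.03 (SE 0.10), and its counts are not separable with certainty from a pseudogene copy, Ccnb1-ps, which held 1.02% as many counts. Ccna2, cyclin A2, averaged 78.9 ± 2.91 and 75.0 ± 5.30 CPM. The phosphatases that activate Cdk1 stood at 107 ± 2.24 and 114 ± 12 CPM for Cdc25b and 18 ± 0.47 and 17.7 ± 1.68 CPM for Cdc25c. Foxm1, the transcription factor of the late wave, averaged 104 ± 3.78 and 109 ± 9.29 CPM. In Cdc25b and Foxm1 the higher mean came from Vdbp replicate 1, at 128 and 119.6 CPM, while Vdbp replicates 2 and 3 lay within the empty-vector range for both genes.

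Of the 3 members of the chromosomal passenger complex, which corrects faulty attachments and later moves to the central spindle, 2 had a log2 fold change above 0 and none passed the test. Incenp, its scaffold (chromosome 19, 9872297 to 9899533), had 175, 149.6 and 173 CPM against 193, 168 and 171 CPM, a log2 fold change of 0.09 (SE 0.10, adjusted p 0.798). Empty-vector replicate 2 was the lowest library and Vdbp replicate 1 the highest, and the other 4 lay between 168 and 175 CPM. Aurkb, the Aurora B kinase of the complex, showed the same order at its ends, with 103, 94.8 and 104 CPM against 118, 101 and 109.9 CPM (log2 fold change 0.13, SE 0.10, adjusted p 0.781). Birc5, survivin, averaged 109 ± 12.3 and 102 ± 4.06 CPM. With the offset the log2 fold changes were 0.00086 for Incenp, 0.08 for Aurkb and −0.05 for Birc5.

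The spindle assembly checkpoint genes had 2 of 5 members above 0, a median of −0.11, and none past the test. With the offset 3 of 5 were above 0 and the median was 0.04, and of these genes only Mad2l1 changed sign. Bub1b, which encodes BubR1, an inhibitor of Cdc20, had the lowest SE of all members. It had 183, 173 and 175 CPM against 181, 183 and 187 CPM, a log2 fold change of 0.05 (SE 0.08, adjusted p 0.851). Bub1, the kinase that recruits the checkpoint to kinetochores, had 107, 129 and 103 CPM against 76.8, 103 and 115 CPM, a log2 fold change of −0.20 (SE 0.14, adjusted p 0.781), and −0.09 with the offset. Its lowest library was Vdbp replicate 1 and its highest empty-vector replicate 2, and the other 4 overlapped. The kinase Ttk and the Cdc20 inhibitor Mad2l1 had the same lowest and highest libraries, with log2 fold changes of −0.12 and −0.11, and −0.02 and 0.05 with the offset. Ttk, which starts checkpoint signalling, had 29.8, 38.2 and 32.4 CPM against 24.5, 33.6 and 34.4 CPM, and Mad2l1 averaged 44.0 ± 4.77 and 40.9 ± 6.73 CPM. Bub3, the kinetochore adaptor of Bub1 and BubR1, averaged 131 ± 6.71 and 137 ± 8.50 CPM.

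Anaphase onset, with 3 of 4 members above 0 and a median of 0.09 (0.07 with the offset), held the member with the smallest p. Cdc20, the activator of the anaphase-promoting complex (ENSMUSG00000006398, chromosome 4, 118432901 to 118437352), had 153, 136 and 168 CPM against 205, 183 and 171 CPM. Every library labelled Vdbp lay above every empty-vector library, by the least between Vdbp replicate 3 and empty-vector replicate 3. The GC content of Cdc20 was 55.6%. Its lowest library was empty-vector replicate 2 and its highest Vdbp replicate 1, the libraries whose counts followed GC content most closely. The log2 fold change was 0.29 (95% interval 0.05 to 0.52; unadjusted p 0.0203 and adjusted p 0.781 by edgeR), and 0.17 with the offset (adjusted p 0.511). Over all alternatives run the adjusted p lay between 0.418 and 1.00, and without empty-vector replicate 1 or 2 the unadjusted p was 0.0556 or 0.102 by edgeR. Its exons share 53 bases with those of Elovl1 on the opposite strand, which held 106% as many counts, and the labels do not say whether the counting used strand. Ube2c had 378, 373 and 324 CPM against 356, 329.6 and 376 CPM, a log2 fold change of −0.02 (SE 0.10, adjusted p 0.956), with overlap of the groups. Pttg1, securin, the inhibitor of separase, averaged 25.3 ± 3.62 and 26.4 ± 0.69 CPM. Espl1, separase itself, averaged 162 ± 12.1 and 175 ± 25.6 CPM, and without Vdbp replicate 1 its log2 fold change went from 0.11 to −0.01.

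Among the 7 centromere and kinetochore members 2 were above 0 and 5 below, with a median of −0.15, and with the offset −0.03. Cenpa, the histone H3 variant that marks centromeres (ENSMUSG00000029177, chromosome 5, 30666777 to 30674830), had 99.1, 91.7 and 94.6 CPM against 115, 107.5 and 106 CPM. The groups did not overlap. The log2 fold change was 0.20 (95% interval 0.01 to 0.40; unadjusted p 0.0407 and adjusted p 0.781 by edgeR), and it was 0.22 with the offset (adjusted p 0.483). Leaving out each library in turn gave 0.17 to 0.23, with an unadjusted p of 0.0543 to 0.147 by edgeR, and over all alternatives run the adjusted p lay between 0.439 and 1.00. The Ndc80 complex, which binds microtubules, has all 4 of its subunits among the members, and the 95% interval of each spanned 0. Ndc80, Nuf2 and Spc25, with GC contents of 42.4%, 41.7% and 42.6%, had log2 fold changes of −0.0036, −0.15 and −0.22, and Vdbp replicate 1 was the lowest and empty-vector replicate 2 the highest library for each. Spc24, with a GC content of 52.9%, had a log2 fold change of 0.06, with Vdbp replicate 1 as its highest library. With the offset the log2 fold changes were 0.11 for Ndc80, −0.03 for Nuf2, −0.12 for Spc25 and −0.0023 for Spc24. The signs of Ndc80 and Spc24 thus differed between the fits, but each value moved by less than its SE without the offset (0.16 and 0.15). Differences between the subunits were not tested. The subunits averaged 31.1 ± 4.64 and 31.0 ± 6.18 CPM (Ndc80), 41.6 ± 4.24 and 37.5 ± 3.90 CPM (Nuf2), 25.4 ± 3.14 and 26.4 ± 4.48 CPM (Spc24) and 53.0 ± 7.32 and 45.7 ± 5.14 CPM (Spc25). Cenpe, a motor that moves chromosomes to the spindle equator, had 101, 128 and 99.6 CPM against 70.9, 87.2 and 126 CPM, a log2 fold change of −0.21 (SE 0.18), and −0.10 with the offset. Vdbp replicate 3 came close to its highest library, empty-vector replicate 2, while Vdbp replicates 1 and 2 were below all empty-vector libraries. Cenpf, a large protein of the outer kinetochore, spanned 41.2 to 47.8 CPM with empty vector and 32.4 to 49.7 CPM under the Vdbp label, with a log2 fold change of −0.23 (−0.08 with the offset).

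Spindle kinases and motors gave 2 members above 0 and 4 below in both fits, with a median of −0.07 (−0.04 with the offset). Tpx2 had 447, 452 and 423 CPM against 386, 443 and 434 CPM, a log2 fold change of −0.07 (SE 0.09, adjusted p 0.838). Nusap1, which bundles spindle microtubules (chromosome 2, 119618298 to 119651244), had the lowest log2 fold change of all members. It had 44.7, 61.7 and 44.8 CPM against 29.8, 46.0 and 48.6 CPM, a log2 fold change of −0.28 (SE 0.18, adjusted p 0.781), and −0.18 with the offset. Without empty-vector replicate 2 and Vdbp replicate 1 the other 4 libraries lay between 44.7 and 48.6 CPM, and the log2 fold change was 0.07. Plk1, the polo-like kinase, had 105, 95.9 and 110.4 CPM against 128, 108 and 106 CPM, with Vdbp replicate 1 alone above the empty-vector range. Its log2 fold change of 0.14 became 0.02 with the offset. Aurka, the Aurora A kinase, averaged 158 ± 13.6 and 162 ± 9.54 CPM. The motors Kif11, which pushes the spindle poles apart, and Kif2c, which depolymerises microtubules, averaged 98.0 ± 12.1 and 88.4 ± 14.3 CPM and 77.4 ± 6.53 and 73.7 ± 3.26 CPM, with log2 fold changes of −0.15 and −0.07 (−0.04 and −0.09 with the offset).

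All 6 members of the central spindle and cytokinesis group had a log2 fold change below 0, from −0.23 to −0.02, but with the offset 2 were above 0 and none passed in either fit. Kif20a, a motor of the central spindle, had 119, 115 and 98.5 CPM against 101, 109.7 and 106 CPM (log2 fold change −0.07, SE 0.10, adjusted p 0.831). Its exons overlap those of Cdc23 on the opposite strand, which held 51.9% as many counts, so its level is uncertain. Ect2, the exchange factor that activates RhoA for the contractile ring, had 29.9, 34.1 and 31.3 CPM against 22.3, 29.0 and 30.1 CPM (log2 fold change −0.23, SE 0.13, adjusted p 0.781; −0.10 with the offset). Vdbp replicates 1 and 2 were below all empty-vector libraries, replicate 1 by the most, while Vdbp replicate 3 overlapped the empty-vector range. The microtubule bundler Prc1 had 82.6, 82.7 and 74.6 CPM against 68.5, 78.9 and 89.4 CPM (log2 fold change −0.02, and 0.10 with the offset), and its motor partner Kif4 averaged 57.7 ± 3.98 and 53.1 ± 7.43 CPM (−0.12). Kif23, the motor of centralspindlin, averaged 94.3 ± 10.8 and 85.6 ± 7.99 CPM (−0.14), and Anln, a scaffold of the contractile ring, 126 ± 10.5 and 123 ± 18.3 CPM (−0.04, and 0.07 with the offset). Kif4 overlaps Pdzd11, which held 82.5% as many counts, on the opposite strand. Opposite-strand overlaps with a gene holding over 10% of the member's counts also touched Ccna2 (Exosc9) and Nusap1 (Oip5).

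The pair of genes most used as proliferation markers had the highest SD in CPM of all members in both groups, a measure that rises with level. On the log2 scale they were not the most variable, as the SE of the log2 fold change was highest for Nusap1 and Cenpe (0.18 each). Top2a, the topoisomerase that untangles sister chromatids (chromosome 11, 98992943 to 99024189), had 511, 615 and 502 CPM against 389.8, 518 and 564 CPM. Mki67, which encodes Ki-67, a coat protein of mitotic chromosomes (chromosome 7, 135689784 to 135716361), had 288, 349 and 273 CPM against 212, 244 and 319.5 CPM. For both genes Vdbp replicate 1 was lowest and empty-vector replicate 2 highest, while Vdbp replicate 3 lay above empty-vector replicates 1 and 3. The log2 fold changes were −0.15 (SE 0.14, adjusted p 0.792) for Top2a and −0.23 (SE 0.15, adjusted p 0.781) for Mki67. They were −0.03 and −0.15 with the offset, and 0.09 and 0.0010 without those 2 libraries.

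The members divided by their GC content, and their deviations followed it most closely in the same 2 libraries. Across the members, Spearman's rho between deviation and GC content was −0.79 in empty-vector replicate 2 and 0.87 in Vdbp replicate 1. It was −0.56 in Vdbp replicate 3 and −0.23 to 0.20 in the other libraries. The median GC content was 47.0% for the members and 49.5% for the tested genes. Of the 28 members below the median of tested genes, 24 had a log2 fold change below 0, and of the 12 at or above it 10 had one above 0, with medians of −0.10 and 0.08. The same split was seen over all tested genes, of which 26.1% below the median GC and 71.3% at or above it had a log2 fold change above 0. Across the 40 members, which share the same 6 libraries and are not independent, Spearman's rho between log2 fold change and GC content was 0.75 (0.51 over all tested genes), and 0.21 with the offset. The offset is fitted to each library's own trend on GC content, so this fall follows from how it is made. It would also take out a group difference that followed GC content. Vdbp replicate 1 was the lowest of the 6 libraries for 21 of the 28 lower-GC members and the highest for 9 of the 12 higher-GC members. Empty-vector replicate 2 was the highest for 17 of the 28 and the lowest for 7 of the 12. Over all tested genes, Vdbp replicate 1 was the lowest library for 32.3% and the highest for 32.8%. The shares of empty-vector replicate 2 were 24.5% lowest and 27.5% highest. The median deviation from the gene mean, in log2 CPM, was −0.24 for lower-GC and 0.17 for higher-GC members in Vdbp replicate 1, and 0.17 and −0.11 in empty-vector replicate 2. In the other 4 libraries both medians lay between −0.05 and 0.06.

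**Figure D3:**
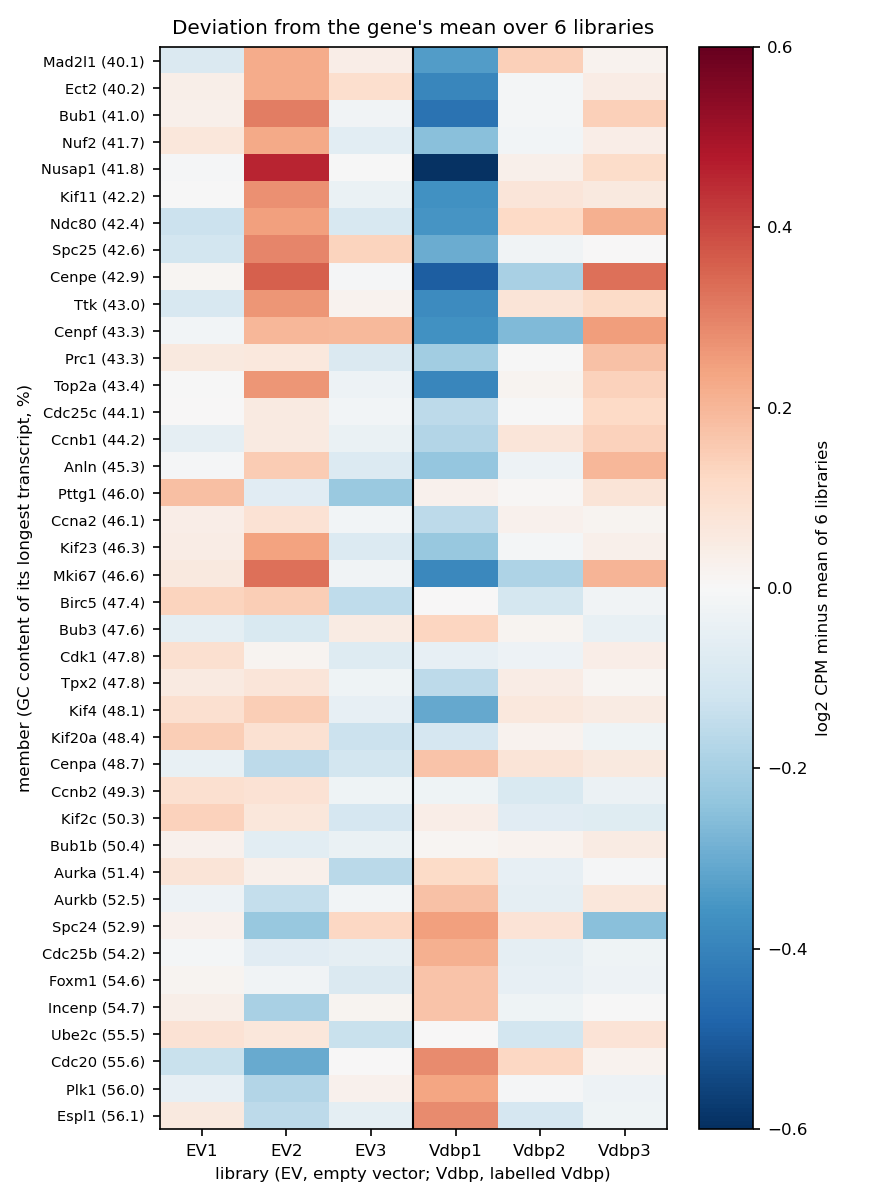
Deviation of each member's log2 CPM from its mean over the 6 libraries, with members ordered from the lowest GC content (top) to the highest (bottom) and a line between the groups. The second column (empty-vector replicate 2) runs from above to below the mean down the plot and the fourth (Vdbp replicate 1) from below to above.

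With each library's trend on length and GC content removed, the median deviation of the 40 members was 0.02, 0.03 and −0.03 with empty vector and −0.03, −0.01 and 0.03 under the Vdbp label, in the order of the replicates. The groups overlapped. Without the removal the same medians ran from −0.16 in Vdbp replicate 1 to 0.08 in empty-vector replicate 2. When both of these libraries were left out, 25 members were above 0 and 15 below, with a median log2 fold change of 0.0090. With all 6 libraries 14 were above 0 and 26 below. However, empty-vector replicate 2 was the highest library for 17 members and Vdbp replicate 1 the lowest for 21. Leaving out this pair, chosen from these same data, raises the log2 fold change of those members by construction. The reversed majority therefore says nothing further about direction.

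**Figure D4:**
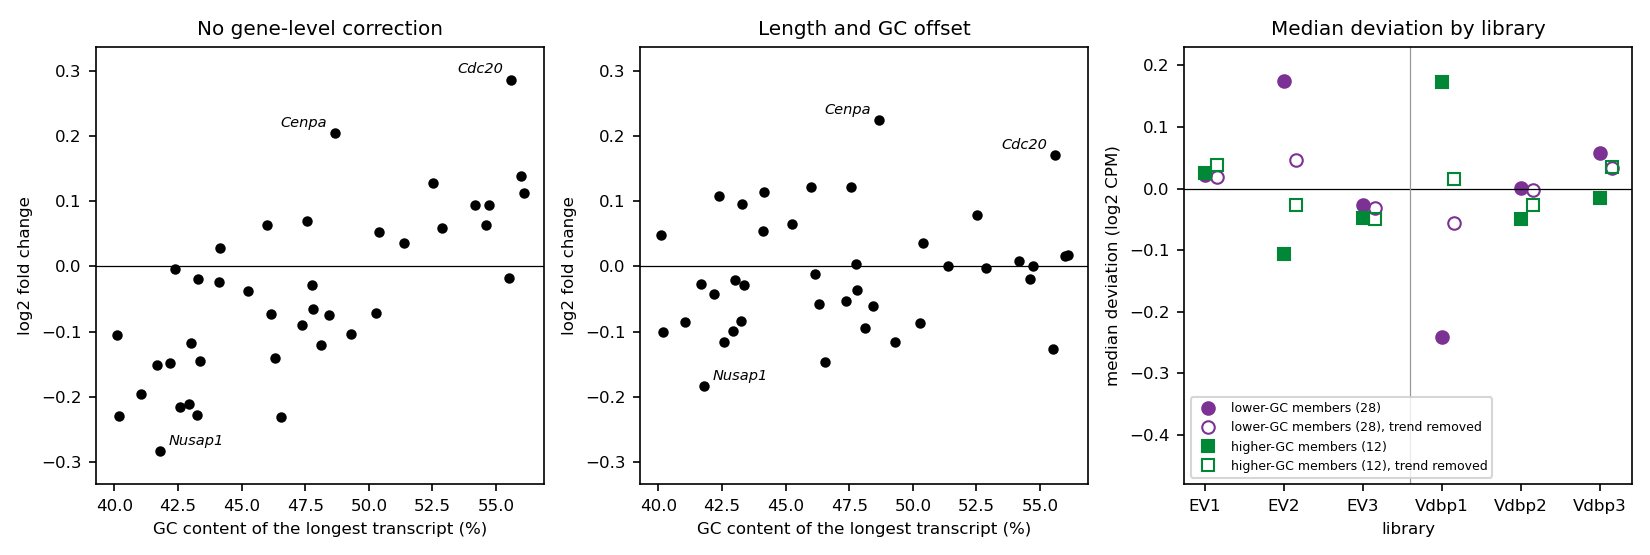
Left and centre, log2 fold change of the 40 members against the GC content of their longest transcript, without and with the length and GC offset. Right, median deviation from the gene mean in log2 CPM for lower-GC and higher-GC members in each library, filled as measured and open with the library's trend removed; the largest deviations, −0.24 and 0.17, are those of Vdbp replicate 1 and empty-vector replicate 2.

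Further genes of mitosis were taken from 6 lists written by function. Of 127 genes 126 were tested, edgeR called 0, and 4 (3.17%) had an unadjusted p under 0.05, against 5.35% of all tested genes: Tuba1b and Anapc11 were above 0, Cks2 and Mastl below (Mastl at −0.48, SE 0.22). The log2 fold change was above 0 in 50 and below 0 in 76, and with the offset in 61 and 65. Condensin and cohesin genes, which shape and hold chromatids, had 3 of 18 above 0 (median −0.08), and the cohesin loader Nipbl had the smallest p among them (75.3 ± 9.47 and 62.3 ± 13.4 CPM). With the offset 9 of these 18 were above 0 (median −0.00029). Further kinetochore genes had 9 of 32 above 0 (median −0.13), where Cenpt had the smallest p (26.8 ± 1.90 and 31.3 ± 4.36 CPM), and with the offset 12 were above 0 (median −0.05). Subunits and inhibitors of the anaphase-promoting complex had 10 of 17 above 0 (median 0.02, and 12 with a median of 0.04 with the offset), where Anapc11 averaged 72.2 ± 3.02 and 86.2 ± 9.92 CPM. Further spindle and cytokinesis genes had 13 of 30 above 0 (median −0.06, and 11 with a median of −0.02 with the offset), where the tubulin Tuba1b averaged 953 ± 56.3 and 1176 ± 78.2 CPM, and tubulin genes have close copies that make their counts uncertain. Further kinases and phosphatases of entry had 7 of 15 above 0 (median −0.01, and 9 with a median of 0.02 with the offset), where Cks2, a Cdk-binding subunit, averaged 33.6 ± 1.51 and 26.6 ± 4.13 CPM. The MuvB, B-Myb and DREAM regulators, whose MuvB core complex binds the TTTGAA core, had 8 of 14 above 0 in both fits (median 0.0032, and 0.02 with the offset). Among them Mybl2, B-Myb, averaged 324 ± 18 and 368 ± 46.8 CPM.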

How the data were processed

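Messenger RNA of 6 DC2.4 samples was sequenced (3 empty vector, 3 labelled Vdbp). Both tables were made by the authors from their reads. The submitters' processing notes list HISAT2 and StringTie, with no version and no role. The counting tool, build and annotation were not given in the sources used here. Counts deposited per Ensembl gene are not normalised. The deposited FPKM values equalled the count divided by the table's gene length and 1 constant per library (largest relative gap 5.2e-15), so FPKM were used only for levels per length and for alternatives. Positions are those of the table; 99.8% of gene identifiers were found in GENCODE M21 (GRCm38), and its start and end equalled the table's for 98.3% of those found (37 of the 40 members). GC content was taken from its longest transcripts.

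Counts were fitted in R 4.3.3 with edgeR 4.0.16: filterByExpr (minimum count 10, total 15, proportion 0.7), TMM scaling and a two-sided quasi-likelihood F test on group, adjusted over 12844 genes at a threshold of 0.05. CPM use the TMM-adjusted totals; a count of 0 was read as up to 3 counts, for counting error only. The offset was a mgcv 1.9.3 smooth of each library's deviations on length and GC content; 10 tested genes without a GC value took the median. Alternatives also used DESeq2 1.42.0, limma 3.58.1 (voom, and log2 FPKM with pseudocounts of 1 and 0.1), RLE, upper-quartile and total-count scaling, no filter, the replicate number as a block, and left-out libraries. The scripts were tested on simulated data. Members and lists were chosen with earlier results of these data known. In each of 8 role groups the member with the highest FPKM and the one with the smallest p are given in full.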

Additional observations from a re-analysis of the deposited data

How the results depend on the processing

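The count of members called was 0 under every alternative run. Scaling by RLE, upper quartile or total count, limma-voom and log2 FPKM changed the sign of at most 1 of 40 members. Under every alternative the median log2 fold change of the members moved by less than 0.08. That value is another quantity, the pooled SD within groups of each library's median deviation over the members. It includes empty-vector replicate 2 and Vdbp replicate 1, and without both of them the median log2 fold change went from below to above 0. For the members, this pair is the empty-vector library most often highest and the Vdbp library most often lowest. Leaving it out therefore raises the log2 fold change of such members by construction. Of all genes, DESeq2 called 11, the unfiltered edgeR fit 89, the length and GC offset 2 and unfiltered log2(FPKM + 1) 4, against 0; leaving out 1 library gave 0 to 22, the highest without empty-vector replicate 3. Members at an unadjusted p under 0.05 were 1 with DESeq2 (Cdc20), against 2. The unfiltered fit had 3, with Cdc20 above 0, Nusap1 and Mki67 below 0 and Cenpa no longer among them. Leaving out 1 library gave 0 to 6, with 0 without empty-vector replicate 1 or 2 and 6 without Vdbp replicate 3 (Cdc20 above 0, and Bub1, Cenpe, Cenpf, Nusap1 and Mki67 below). With the replicate number as a block, edgeR called 0 genes and 1 member (Cdc20) had an unadjusted p under 0.05; the median log2 fold change of the members was −0.056. The numbers were not shown to pair the libraries: across genes the deviations of same-numbered libraries correlated at 0.13, 0.019 and −0.24, and only empty-vector replicate 1 correlated best with its own number. A sign change in which the value moved by more than its SE was counted as a change of direction; sign changes within the SE are not listed (the total was 8 with the offset and 10 without Vdbp replicate 1). With the offset Mad2l1 (0.048) and Prc1 (0.096) changed direction. Leaving out 1 library changed only Espl1, whose values ran from −0.010 to 0.19 (−0.010 without Vdbp replicate 1). Without empty-vector replicate 2 and Vdbp replicate 1 together, edgeR called 2 genes, 1 member (Ndc80, above 0) had an unadjusted p under 0.05, 25 members were above 0 against 14, and 19 changed direction, with the cause not tested: Ndc80 (0.28), Ttk (0.13), Anln (0.13), Mad2l1 (0.10), Prc1 (0.10), Top2a (0.092), Kif11 (0.084), Cenpe (0.083), Nusap1 (0.074), Bub1 (0.058), Kif4 (0.029), Kif23 (0.023), Nuf2 (0.0068) and Mki67 (0.0010) to above 0, and Spc24 (−0.15), Espl1 (−0.067), Incenp (−0.042), Cdc25b (−0.011) and Plk1 (−0.0078) to below 0. After seeing the data, the offset was also combined with leaving out 1 of these libraries. Without Vdbp replicate 1, 0 genes were called, 3 members (Ccnb1, Cdc20 and Cenpa, above 0) had an unadjusted p under 0.05, and Ndc80 (0.17), Anln (0.11), Prc1 (0.10), Mad2l1 (0.053), Ttk (0.036), Top2a (0.031) and Espl1 (−0.0067) changed direction. Without empty-vector replicate 2, 1 gene was called, 1 member (Cenpa) had an unadjusted p under 0.05, and Ndc80 (0.17), Anln (0.091), Mad2l1 (0.044), Top2a (0.0096), Kif23 (0.0036) and Incenp (−0.035) changed direction. With 3 libraries a group, the 95% intervals of all members but Cdc20 and Cenpa included 0. Counting without a stated strand limits the level of members that overlap genes on the opposite strand.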

Other observations

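Genes of DNA replication, which act in the phase before the members, mostly had log2 fold changes above 0, and none passed the test. Of 28 S phase genes, none of them a member, 20 had a log2 fold change (libraries labelled Vdbp over empty vector) above 0 and 8 below, with a median of 0.06, against 48.7% above 0 and a median of −0.01 over all tested genes. With the length and GC offset 23 were above 0, with a median of 0.07. edgeR called 0 of them. At an unadjusted p under 0.05 there were 3 (10.7%) with the offset, against 8.91% of all tested genes, and without it 1 (3.57%), against 5.35%: Mcm5, a subunit of the replicative helicase, at 219 ± 19.9 CPM with empty vector and 272 ± 35.4 CPM under the Vdbp label (SD, n = 3 each; adjusted p 0.781 by edgeR). The median deviation of the list from the gene means, in log2 CPM, by replicate number, was 0.00040, −0.03 and −0.03 with empty vector and 0.07, 0.02 and 0.02 under the Vdbp label. Vdbp replicate 1 was the highest library, and its counts also followed GC content most closely, with higher deviations at higher GC content. The median GC content was 48.7% for the list and 49.5% for the tested genes. A link between the list's values and GC content was not tested. The difference between the S phase list and the members was not tested.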
